A study of Setaria italica with 24 samples.

Results

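Lignin is polymerized from monolignols, which plants make from phenylalanine, and the enzyme families C4H, 4CL, HCT and CCR of that route were followed here through 8 genes of foxtail millet (Setaria italica). Cinnamate 4-hydroxylase (C4H) is a cytochrome P450 that converts cinnamate to p-coumarate, and 4-coumarate:CoA ligase (4CL) joins such acids to coenzyme A. Shikimate O-hydroxycinnamoyltransferase (HCT) moves the p-coumaroyl group onto shikimate, the branch that leads to G and S lignin units. Cinnamoyl-CoA reductase (CCR) reduces the CoA esters to aldehydes and is the entry step into monolignol formation proper. In roots, lignin is best known from xylem vessels and from the Casparian strip of the endodermis.

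The 8 genes were selected by their identifiers, which the study had placed on its monolignol scheme because they responded to mycorrhiza in these libraries: 1 C4H gene (SETIT_001126mg), 1 4CL gene (SETIT_039879mg), 3 CCR genes (SETIT_015117mg, SETIT_017734mg and SETIT_017703mg) and 3 HCT genes (SETIT_010159mg, SETIT_013787mg and SETIT_029887mg). They are 8 of 26785 genes listed in any of the 3 deposited tables, all 8 are listed in all 3 tables, and all 8 passed the filter on low values. Because the mycorrhizal response chose them, AMF against mock values of the 8 genes are given below as a description, without p-values. Counts of the 8 genes past the AMF thresholds come from fits of that same contrast, so nothing is read from them. The tests reported for the 8 genes concern level differences between plant lines. The enzyme names are those the study gave, since the identifiers could not be matched to an annotation here, so positions, transcript lengths and sequences are not given. The families have several similar copies in plants, and how reads shared between near-identical copies were counted is not stated, so values of single copies are uncertain to that extent.

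Roots of 3 lines were compared: Hanevalval (a landrace from Taiwan), TT8 (a Taiwan cultivar) and ISE36 (a landrace from India, spelled ICE36 in the sample labels). Seedlings of each line went into cones of sterile substrate and were either mock-treated or inoculated with the arbuscular mycorrhizal fungus (AMF) Claroideoglomus etunicatum, and roots were taken at 6 weeks post inoculation. Each of the 6 groups had 4 libraries, 24 in all, with 15013564 to 23333517 reads assigned to genes per library. Values are normalized counts, in which 1 read is worth close to 1 unit in every library, and the labels do not say whether libraries came from separate plants or pools, so p-values measure the spread between these libraries. In whole roots, fewer cells of a type and less RNA per cell cannot be told apart.

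The treatment labels were checked with 5 genes that mark mycorrhizal colonization, the phosphate transporter SiPHT1;9, the transcription factor RAM1 and the lipid supply genes RAM2, STR2 and FatM, all 5 of which are listed in each line. Their summed normalized count ran from 27.4 to 152 (median 42.3) in Hanevalval mock and from 212 to 2012 (median 565) in Hanevalval AMF libraries. TT8 ran from 10.2 to 135 (median 17.1) in mock and from 3782 to 7013 (median 4468) in AMF libraries, and ISE36 from 10.6 to 20.9 (median 16.9) in mock and from 145 to 547 (median 292) in AMF libraries. The sums separated mock from AMF in every line, though STR2 and FatM each overlapped between mock and AMF in Hanevalval and ISE36. There were 3 mock libraries whose sums stood above the others of their group, namely Hanevalval mock replicates 3 (152) and 4 (57.2) and TT8 mock replicate 4 (135). In Hanevalval mock, SiPHT1;9, RAM2 and FatM were higher in replicates 3 and 4, but STR2 was lower there. STR2 had 21.7, 20.9, 4.66 and 3.24 in replicates 1 to 4. RAM1 had no read in 3 of 4 Hanevalval mock, 3 of 4 TT8 mock and all 4 ISE36 mock libraries, and its values in the remaining ones were 18.7 in Hanevalval replicate 3 and 4.74 in TT8 replicate 4. Several of the 8 genes had values in Hanevalval mock replicates 3 and 4 far from those in replicates 1 and 2, so Hanevalval fold changes are also given without each of these pairs. The part of colonization marker level in those differences was not tested.

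C4H was higher in mycorrhizal Hanevalval roots, lower in mycorrhizal TT8 roots and little different in ISE36. In Hanevalval, SETIT_001126mg had normalized counts of 298, 257, 358 and 216 in mock replicates 1 to 4, against 959, 660.3, 1164 and 872 with AMF. All AMF libraries lay above all mock libraries, with means of 282 ± 60.7 and 914 ± 209 (SD, n = 4). The log2 fold change was 1.69 (SE 0.22), and it was 1.68 without mock replicates 1 and 2 and 1.69 without replicates 3 and 4, so this gene did not follow the split of the Hanevalval mock libraries.

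TT8 differed in direction for C4H. Mock libraries held 599, 486, 169.7 and 162, and AMF libraries 155, 142, 105 and 167. Replicates 1 and 2 of the mock group were high while replicates 3 and 4 were near the AMF range, so the groups overlapped, with a log2 fold change of -1.09 (SE 0.43). ISE36 had the lowest C4H level, 135, 103, 94.9 and 91.9 in mock and 109, 127, 142 and 133 in AMF libraries. These ranges also overlapped, at a log2 fold change of 0.28 (SE 0.16).

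The 4CL gene SETIT_039879mg had separate mock and AMF groups in TT8 but not in the landraces, and no group mean exceeded 63.6 ± 7.69 (SD, n = 4). TT8 mock libraries had 27.9, 40.0, 19.6 and 16.6, and TT8 AMF libraries 69.8, 65.1, 52.4 and 67.0. The TT8 groups did not overlap, and the log2 fold change was 1.33 (SE 0.29). In Hanevalval the mock values were 42.2, 35.1, 24.2 and 9.71 and the AMF values 47.1, 12.9, 41.0 and 50.5. ISE36 gave 36.4, 32.3, 23.5 and 23.7 in mock against 35.9, 35.8, 19.8 and 22.4 with AMF. Both landraces had overlapping groups, with log2 fold changes of 0.44 (SE 0.56) in Hanevalval and -0.05 (SE 0.28) in ISE36. Without mock replicates 1 and 2 the Hanevalval value was 1.08, and without replicates 3 and 4 it was -0.19.

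**Figure D1:**
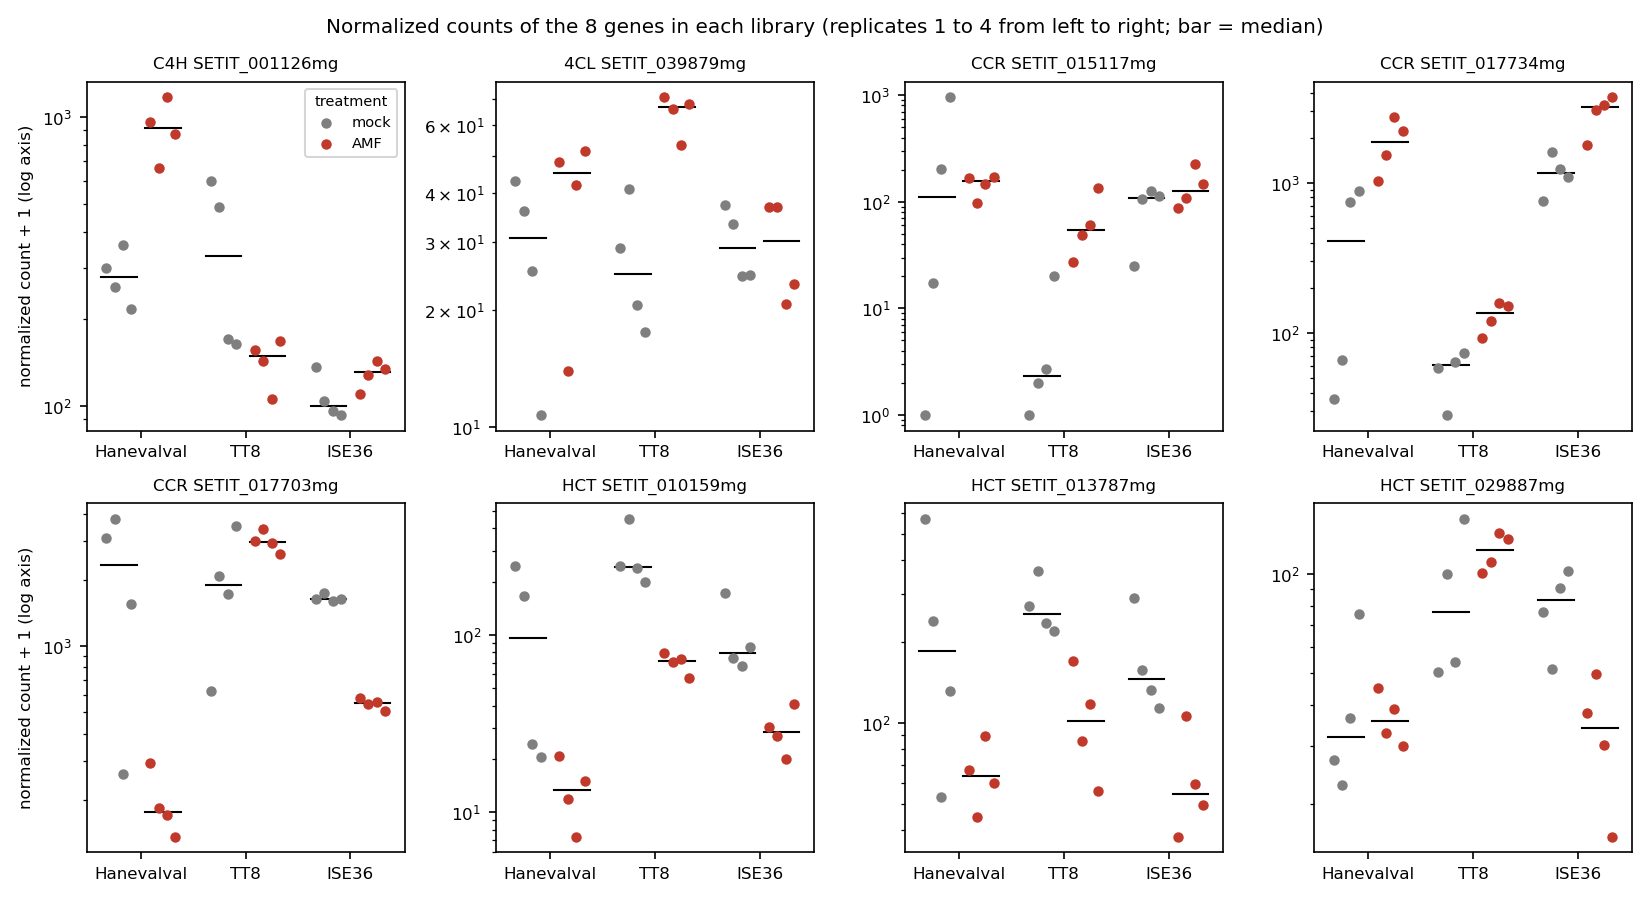
Normalized count plus 1 (log axis) of each of the 8 genes in the 24 libraries, by line, with mock libraries in grey, AMF libraries in red, replicates 1 to 4 from left to right and a bar at each group's median. The mock libraries of Hanevalval spread widely for most genes, and the median of SETIT_017734mg is lowest in TT8 in both treatments.

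Among the 3 CCR genes, SETIT_017734mg was higher with AMF in all 3 lines and SETIT_017703mg was lower with AMF in both landraces but not in TT8. SETIT_017734mg had 35.3, 64.6, 748 and 877 in Hanevalval mock libraries and 1026, 1537, 2729 and 2211 in Hanevalval AMF libraries. In TT8 it had 57.7, 27.3, 63.1 and 72.3 in mock against 91.6, 119, 156 and 149 with AMF. ISE36 mock roots held 750.3, 1596, 1238 and 1094, and ISE36 AMF roots 1794, 3071, 3288 and 3712. Mock and AMF libraries of SETIT_017734mg did not overlap in any line. The log2 fold change of this gene was 3.14 (SE 1.02) for Hanevalval, 1.27 (SE 0.32) for TT8 and 1.34 (SE 0.27) for ISE36. The Hanevalval value rests on which mock libraries are counted, since it was 1.12 without replicates 1 and 2 and 5.17 without replicates 3 and 4.

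SETIT_017703mg was the CCR gene with the opposite order in the landraces. Hanevalval mock libraries had 3112, 3787, 261 and 1551, and Hanevalval AMF libraries 293, 183, 169 and 135. Mock replicate 3 lay within the AMF range, so the groups overlapped, and the other 3 mock libraries lay above it. The log2 fold change was -2.98 (SE 0.76), with -1.76 without mock replicates 1 and 2 and -4.19 without replicates 3 and 4. In ISE36 the libraries were tight, at 1638, 1749.7, 1604 and 1635 in mock and 579, 545, 559 and 504 with AMF. The ISE36 groups did not overlap, with a log2 fold change of -1.60 (SE 0.09), the smallest standard error among the 8 genes in the 3 lines. TT8 had 624, 2080.3, 1720.2 and 3517 in mock and 3015, 3391, 2944 and 2632 in AMF libraries, which overlapped, at a log2 fold change of 0.83 (SE 0.44).

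SETIT_015117mg was close to 0 in TT8 mock roots, at 0, 0.976, 1.71 and 19.0, and had 26.2, 47.6, 59.8 and 133 in TT8 AMF roots. The groups did not overlap, and the log2 fold change was 4.15 (SE 0.88), on a scale with 1 added to every value, which understates changes from such low values. TT8 mock replicate 4, the highest of its group, is also the TT8 mock library with the highest colonization marker sum. Without it the log2 fold change was 5.03. Hanevalval mock libraries had 0, 16.1, 203 and 951 and AMF libraries 164, 96.3, 145 and 171. The mock values enclosed the AMF values, and the log2 fold change of 1.73 (SE 1.81) became -1.64 without mock replicates 1 and 2 and 5.10 without replicates 3 and 4. No direction can therefore be given for this gene in Hanevalval. In ISE36 it had 23.9, 106, 126 and 111 in mock and 87.0, 106, 223 and 145 with AMF, overlapping groups with a log2 fold change of 0.76 (SE 0.51).

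The balance between SETIT_017734mg and SETIT_017703mg was compared within each library as reads of SETIT_017734mg per read of SETIT_017703mg, a ratio chosen after the values were seen. Transcript lengths were not known, so the ratio compares libraries and not the molar levels of the genes. In ISE36 it was 0.458, 0.912, 0.772 and 0.669 in mock libraries and 3.10, 5.64, 5.89 and 7.36 in AMF libraries. In Hanevalval it was 0.0114, 0.0170, 2.86 and 0.565 in mock and 3.51, 8.41, 16.1 and 16.3 with AMF. Both landraces had more reads of SETIT_017734mg than of SETIT_017703mg in every AMF library, and in 1 mock library, Hanevalval replicate 3. In TT8 the ratio was 0.0925, 0.0131, 0.0367 and 0.0205 in mock and 0.0304, 0.0351, 0.0531 and 0.0568 in AMF libraries. All TT8 libraries thus had far fewer reads of SETIT_017734mg, with either treatment.

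**Figure D2:**
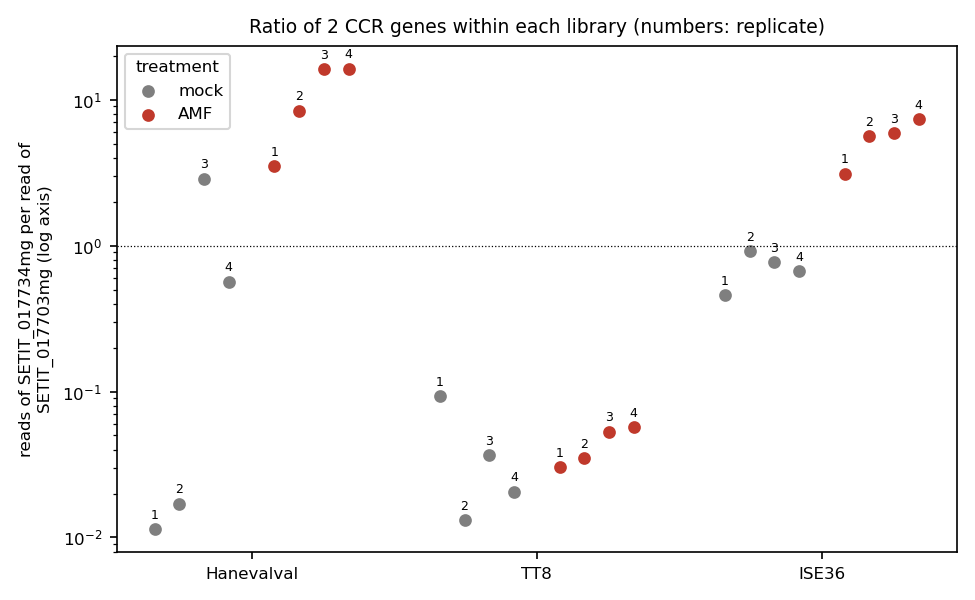
Reads of SETIT_017734mg per read of SETIT_017703mg (log axis) in each of the 24 libraries by line, mock in grey and AMF in red, with replicate numbers above the points and a dotted line at equal reads. The 8 AMF libraries of Hanevalval and ISE36 lie above 3, while the 8 TT8 libraries lie between 0.0131 and 0.0925.

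Of the HCT genes, SETIT_010159mg and SETIT_013787mg were lower with AMF in all 3 lines. SETIT_010159mg had 243, 452, 238 and 199 in TT8 mock libraries and 78.5, 69.3, 72.3 and 56.0 in TT8 AMF libraries. ISE36 had 172, 72.9, 66.0 and 84.6 in mock against 29.3, 25.8, 18.9 and 40.1 with AMF. Hanevalval had 244, 166, 23.3 and 19.4 in mock and 19.7, 10.9, 6.30 and 14.0 with AMF. The groups were separate in TT8 and ISE36, while in Hanevalval mock replicate 4, at 19.4, lay just under the highest AMF library. Log2 fold changes were -1.96 (SE 0.25) in TT8, -1.70 (SE 0.33) in ISE36 and -2.39 (SE 0.84) in Hanevalval. The last was -0.80 without mock replicates 1 and 2 and -3.98 without replicates 3 and 4.

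SETIT_013787mg gave nearly the same log2 fold change in each line, -1.47 (SE 0.64) in Hanevalval, -1.43 (SE 0.33) in TT8 and -1.46 (SE 0.36) in ISE36. Its normalized counts were 271, 364, 233 and 218 in TT8 mock and 169, 84.8, 116 and 54.9 in TT8 AMF roots. In ISE36 they were 288, 157, 131 and 113 in mock and 36.9, 105, 58.4 and 48.5 in AMF roots. Both of these lines had separate groups. Hanevalval, with 569, 237, 52.2 and 131 in mock and 65.7, 43.7, 88.2 and 59.0 with AMF, had overlapping groups because mock replicate 3 was low, and its log2 fold change was -0.40 without mock replicates 1 and 2 and -2.54 without replicates 3 and 4.

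SETIT_029887mg behaved differently from the other HCT genes. ISE36 mock libraries had 75.4, 50.5, 89.5 and 101, and ISE36 AMF libraries 36.9, 48.7, 29.2 and 14.9. The ISE36 groups were separate by a narrow margin, and the log2 fold change was -1.33 (SE 0.36). Hanevalval had 26.2, 21.8, 35.4 and 74.4 in mock and 43.8, 31.8, 37.8 and 29.0 with AMF, while TT8 had 49.3, 98.5, 52.9 and 146 in mock and 99.2, 108, 132 and 126 with AMF. Neither of these lines had separate groups. The TT8 log2 fold change was 0.55 (SE 0.34), and the Hanevalval mean log2 values were level, with an SE of 0.39 on their difference.

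Counted over the 8 genes, mock and AMF libraries did not overlap with AMF above for 2 genes in Hanevalval (background 11.6% of 24847 genes), 3 in TT8 (12.6% of 24880) and 1 in ISE36 (17.1% of 25036). AMF lay below without overlap for 0 genes in Hanevalval (background 9.08%), 2 in TT8 (12.1%) and 4 in ISE36 (14.7%). By the thresholds the study used (adjusted p up to 0.05, change of 2-fold or more), limma placed 1 of the 8 genes higher and 0 lower in Hanevalval, where 1.42% of all genes were higher and 1.41% lower. In TT8 it placed 3 higher and 2 lower, against 10.6% and 6.1% of all genes, and in ISE36 1 higher and 4 lower, against 5.79% and 4.81%. The TT8 split was 1 higher and 3 lower on the CPM scale, and 2 higher and 3 lower in 1 fit over all 24 libraries. The genes were chosen on this contrast, so nothing is read from these counts. The Hanevalval count was 0 without mock replicates 1 and 2 (0% of all genes) and 6 without mock replicates 3 and 4 (31.6% of all genes). The TT8 count was 7 without mock replicate 4, where 5975 of 24880 genes were called. Close to the 2-fold bound, C4H in TT8 (-1.09) lay just outside it and SETIT_017703mg in TT8 (0.83) just inside. Over the 8 genes the median log2 fold change was 0.22 for Hanevalval (0.01 over all genes), 0.69 for TT8 (-0.01) and -0.69 for ISE36 (-0.01).

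**Figure D3:**
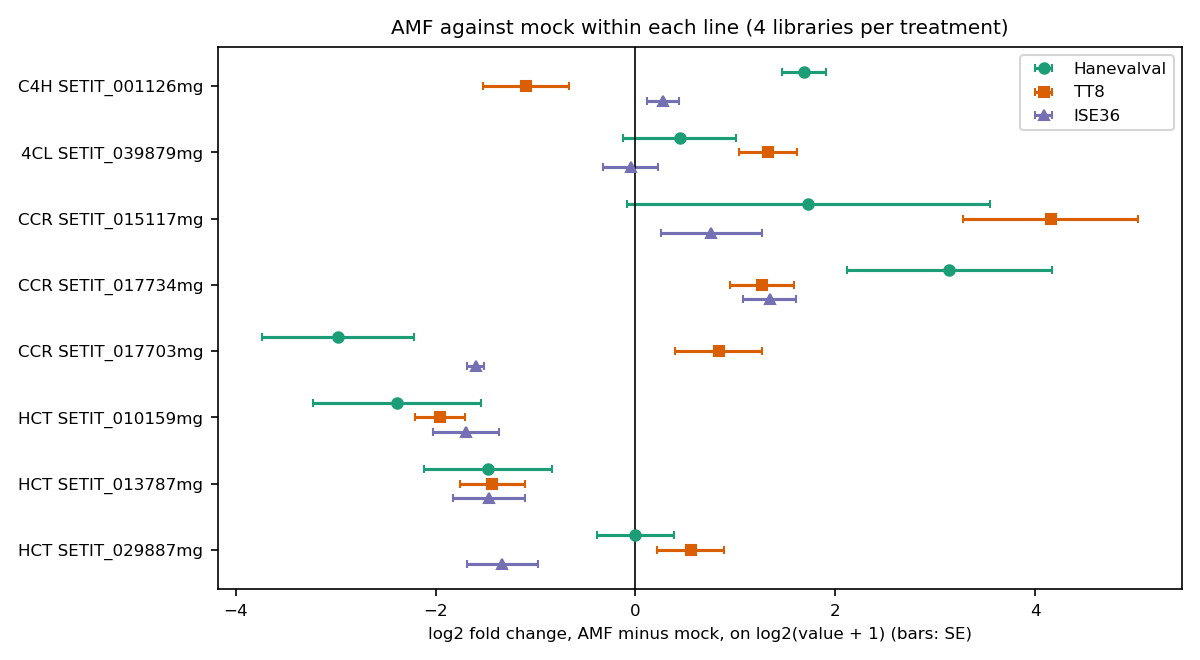
Log2 fold change, AMF minus mock, of the 8 genes in Hanevalval (circles), TT8 (squares) and ISE36 (triangles), from 4 libraries per treatment, with bars of 1 standard error. SETIT_017734mg lies above 0 and SETIT_010159mg and SETIT_013787mg below 0 in all 3 lines, while C4H and SETIT_017703mg lie on opposite sides of 0 in TT8 and Hanevalval.

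The spread between replicates differed by group. Over the 8 genes, the SD of log2 values had a median of 1.60 in Hanevalval mock libraries, with a range of 0.31 for C4H to 4.33 for SETIT_015117mg. The median was 0.44 in Hanevalval AMF, 0.68 in TT8 mock, 0.25 in TT8 AMF, 0.44 in ISE36 mock and 0.45 in ISE36 AMF libraries. Within Hanevalval mock, the highest library exceeded the lowest 24.8-fold for SETIT_017734mg, 14.5-fold for SETIT_017703mg, 12.6-fold for SETIT_010159mg and 10.9-fold for SETIT_013787mg. Hanevalval mock values of these 4 genes and of SETIT_015117mg are therefore the least certain of those reported.

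Level differences between lines were tested on the average of mock and AMF libraries of each line, a contrast with weights orthogonal to those of AMF against mock. It is independent of the contrast that chose the genes only where mock and AMF libraries vary alike. The median SD of log2 values in mock and AMF was 1.60 and 0.44 in Hanevalval, and 0.68 and 0.25 in TT8. In ISE36 it was 0.44 and 0.45. Every comparison includes Hanevalval or TT8, so none is fully independent of that choice. Since the average also takes in the AMF libraries, values in mock and in AMF libraries alone are given where they differ. Neither treatment alone is orthogonal to the contrast that chose the genes, so calls in mock or AMF libraries alone are descriptions. A limma model over all 24 libraries gave 1 variance per gene, and p-values were Benjamini-Hochberg adjusted over 23771 genes. A gene was called where the adjusted p was 0.05 or less and the lines differed 2-fold or more. Between TT8 and Hanevalval, 3 of the 8 genes were called higher in TT8 (background 9.02% of all genes) and 3 lower (6.88%). Between ISE36 and Hanevalval 1 was higher in ISE36 (7.6%) and 1 lower (3.97%), and between TT8 and ISE36 2 were higher in TT8 (7.14%) and 2 lower (9.61%). The median absolute log2 difference of the 8 genes was 1.75, 0.62 and 1.10 in these comparisons, beside 0.38, 0.30 and 0.37 over all genes. Reads of all lines were aligned to the same reference genome, and the part of sequence differences between that genome and each line was not tested.

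CCR SETIT_017734mg had the widest range between lines, in the order ISE36, Hanevalval, TT8. Over the 8 libraries of each line its lowest, median and highest normalized counts were 750.3, 1695 and 3712 in ISE36, 35.3, 951 and 2729 in Hanevalval and 27.3, 81.9 and 156 in TT8. ISE36 and TT8 did not overlap, and the difference of TT8 from ISE36 was -4.45 on the log2 scale (SE 0.50, 95% CI -5.49 to -3.42, limma adjusted p = 6.8e-07), 21.9-fold lower in TT8. It was -4.42 in mock libraries alone and -4.49 in AMF libraries alone. TT8 also lay below Hanevalval, by a log2 difference of -2.85 (SE 0.50, limma adjusted p = 0.000156), with -1.91 in mock libraries alone (limma adjusted p = 0.281). In AMF libraries alone it was -3.79. The mock difference lay in Hanevalval mock replicates 3 and 4 (748 and 877), as replicates 1 and 2 (35.3 and 64.6) fell within the TT8 mock range (27.3 to 72.3). With both treatments averaged, the difference was -1.84 without replicates 3 and 4 (limma adjusted p = 4.04e-05) and -3.86 without replicates 1 and 2. ISE36 exceeded Hanevalval 3.04-fold (log2 1.61, SE 0.50, limma adjusted p = 0.0182). That call was lost without Hanevalval mock replicates 1 and 2 (0.59, limma adjusted p = 0.0773) and with edgeR on recovered reads (1.06, edgeR adjusted p = 0.0715). It was also lost in mock libraries alone (2.51, limma adjusted p = 0.136) and in AMF libraries alone (0.71, limma adjusted p = 0.0958).

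C4H was highest in Hanevalval. Its lowest, median and highest values were 216, 509 and 1164 in Hanevalval. TT8 had 105, 165 and 599, and ISE36 91.9, 118 and 142. Hanevalval and ISE36 did not overlap, and ISE36 was 4.29-fold lower (log2 -2.10, SE 0.23, 95% CI -2.57 to -1.63, limma adjusted p = 4.4e-07), with -1.39 in mock libraries alone (limma adjusted p = 0.0608). TT8 was 2.43-fold lower than Hanevalval (log2 -1.28, SE 0.23, limma adjusted p = 0.000172). That second difference lay in the AMF libraries, at -2.67 alone, whereas mock libraries alone gave 0.11 (limma adjusted p = 0.893). TT8 and ISE36 differed by 0.82 (SE 0.23, limma adjusted p = 0.00663), under the 2-fold bound. In mock libraries alone that difference was called, at 1.505 (limma adjusted p = 0.027), and in AMF libraries alone it was 0.14 (limma adjusted p = 0.582).

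CCR SETIT_017703mg was highest in TT8, with a lowest, median and highest value of 624, 2788 and 3517, beside 135, 277 and 3787 in Hanevalval and 504, 1091 and 1749.7 in ISE36. TT8 exceeded Hanevalval 4.24-fold (log2 2.08, SE 0.40, limma adjusted p = 0.000361) and ISE36 2.35-fold (log2 1.23, SE 0.40, limma adjusted p = 0.018). Both differences lay in the AMF libraries, at 3.99 and 2.45 alone, while mock libraries alone gave 0.18 (limma adjusted p = 0.908) and 0.02 (limma adjusted p = 0.99). ISE36 and Hanevalval were not called apart (0.85, 95% CI 0.02 to 1.68, limma adjusted p = 0.113), but were without Hanevalval mock replicates 1 and 2 (1.46, limma adjusted p = 0.00273) or replicate 2 alone (1.08, limma adjusted p = 0.0391).

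HCT SETIT_010159mg was also highest in TT8. It ran from 56.0 to 452 (median 139) there, from 6.30 to 244 (median 19.6) in Hanevalval and from 18.9 to 172 (median 53.0) in ISE36. The TT8 level was 4.67-fold that of Hanevalval (log2 2.22, SE 0.42, limma adjusted p = 0.000297) and 2.66-fold that of ISE36 (log2 1.41, SE 0.42, limma adjusted p = 0.0104). Unlike SETIT_017703mg, this gene had similar sizes in mock libraries alone, 2.01 and 1.54, without passing the adjusted p there (limma adjusted p = 0.203 and 0.162). The mock libraries of TT8 (199 to 452) and ISE36 (66.0 to 172) did not overlap, and that fit shares its variance with Hanevalval mock libraries. Against Hanevalval, the mock value of 2.01 rests on the split of the Hanevalval mock libraries. Replicates 3 and 4 (23.3 and 19.4) lay far below TT8 mock, while replicate 1 (244) lay within its range and replicate 2 (166) below it. With both treatments averaged, TT8 against Hanevalval was 1.43 without mock replicates 3 and 4 (limma adjusted p = 0.000448) and 3.02 without mock replicates 1 and 2. ISE36 and Hanevalval were not called apart (0.81, 95% CI -0.06 to 1.68, limma adjusted p = 0.151), but were without Hanevalval mock replicates 1 and 2 (1.61, limma adjusted p = 0.000109) or replicate 1 alone (1.12, limma adjusted p = 0.0246).

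HCT SETIT_029887mg followed the same order, with medians of 103 in TT8, 49.6 in ISE36 and 33.6 in Hanevalval. TT8 exceeded Hanevalval 2.66-fold (log2 1.41, SE 0.27, limma adjusted p = 0.000379), with 1.13 in mock libraries alone (limma adjusted p = 0.217). TT8 and ISE36 differed by 0.97 (SE 0.27, limma adjusted p = 0.00722), just under the bound, which 7 of 24 fits with 1 library left out exceeded (up to 1.09). That difference lay in the AMF libraries, where it was called alone (1.92, limma adjusted p = 0.000286), while mock libraries alone gave 0.03 (limma adjusted p = 0.965). ISE36 and Hanevalval differed by 0.44 (95% CI -0.13 to 1.00, limma adjusted p = 0.239).

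CCR SETIT_015117mg was lowest in TT8, with medians of 22.6 there, 109 in ISE36 and 155 in Hanevalval. TT8 was 7.52-fold lower than ISE36 (log2 -2.91, SE 0.94, limma adjusted p = 0.0181), with -4.61 in mock libraries alone (limma adjusted p = 0.0899). The mock libraries of TT8 (0 to 19.0) and ISE36 (23.9 to 126) did not overlap. Against Hanevalval, TT8 was 5.74-fold lower (log2 -2.52, SE 0.94, limma adjusted p = 0.0359), a call kept in 13 of 24 fits that each left out 1 library. It was lost on leaving out Hanevalval mock replicate 3 or 4, Hanevalval AMF replicate 1, 3 or 4, TT8 mock replicate 1, 2 or 3, or TT8 AMF replicate 1, 2 or 3, with differences of -2.53 to -1.77 and limma adjusted p = 0.0508 to 0.0857. Without Hanevalval mock replicates 3 and 4 that difference was -0.84 (limma adjusted p = 0.358). ISE36 and Hanevalval were not called apart (0.39, limma adjusted p = 0.794), though the difference was 2.07 (limma adjusted p = 0.0188) without those 2 mock libraries.

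The remaining 2 genes had no called difference between lines with both treatments averaged. For 4CL the intervals were -0.16 to 1.06 for TT8 against Hanevalval, -0.65 to 0.57 for ISE36 against Hanevalval and -0.13 to 1.10 for TT8 against ISE36 (limma adjusted p = 0.228, 0.94 and 0.193). In AMF libraries alone TT8 was called above ISE36 (1.17, limma adjusted p = 0.0248), against -0.20 in mock libraries alone (limma adjusted p = 0.766). That AMF call is not independent of how the gene was chosen. HCT SETIT_013787mg had intervals of -0.13 to 1.38, -0.86 to 0.64 and -0.01 to 1.49 in the same order (limma adjusted p = 0.17, 0.848 and 0.107). In the comparisons with TT8 the intervals of both genes reached beyond 2-fold, and SETIT_013787mg was called higher in TT8 than in Hanevalval without Hanevalval mock replicates 1 and 2 (1.16, limma adjusted p = 0.0031).

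**Figure D4:**
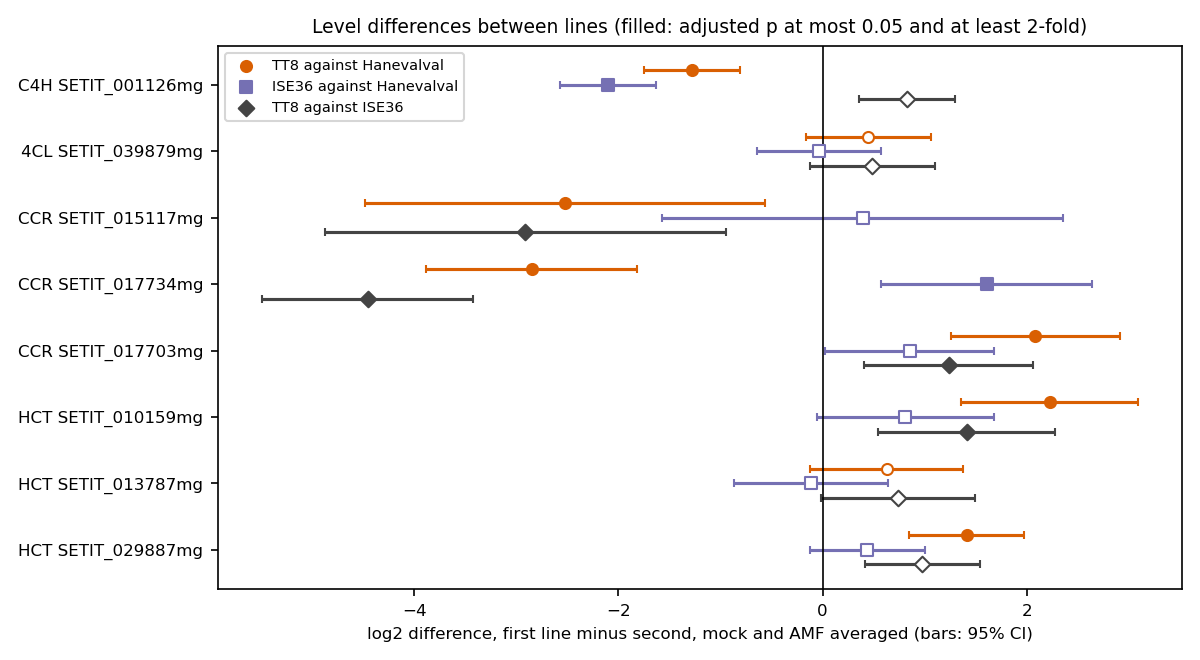
Log2 level difference of the 8 genes between lines, mock and AMF averaged, for TT8 against Hanevalval (circles), ISE36 against Hanevalval (squares) and TT8 against ISE36 (diamonds), with 95% confidence intervals and filled symbols for called differences. SETIT_017734mg in TT8 against ISE36 lies farthest from 0, at -4.45.

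On limits, counting called genes in mock libraries alone gave 0 of 8 for TT8 against Hanevalval (1.44% of all genes), 0 for ISE36 against Hanevalval (4.69%) and 2 for TT8 against ISE36 (10.8%) with limma. At an unadjusted p of 0.05 or less, limma gave 2 and 3 of the 8 genes in the first and second of these, beside 18.2% and 19.6% of all genes. AMF libraries alone gave 6, 3 and 6 of the 8, beside 26.2%, 14.1% and 20.1% of all genes. These calls are not independent of how the genes were chosen. Leaving out the 3 mock libraries with the highest colonization marker sums, an alternative chosen after seeing the data, gave 5, 3 and 4, beside 10.7%, 14.4% and 18.1%. Values with mock libraries alone rest on 4 libraries per line. They also use 1 variance per gene over the 3 lines, so the wide spread of Hanevalval mock libraries enters TT8 against ISE36 as well.

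Upstream of C4H, phenylalanine ammonia-lyase (PAL) deaminates phenylalanine to cinnamate, and 6 PAL genes that the study listed from these same samples were tested, so they are not independent evidence of direction. In ISE36, limma called 4 of the 6 higher with AMF and 0 lower, beside 5.79% and 4.81% of all genes. In TT8 it called 2 higher and 1 lower (10.6% and 6.1% of all genes), and in Hanevalval 0 (1.42% higher and 1.41% lower). Hanevalval had 5 of 6 at an unadjusted p of at most 0.05, all higher (33% of all genes passed that bound in either direction). It had 0 called by edgeR (3.08% of all genes) and 3 by DESeq2 (14.5%). The study, which used DESeq2, marked most of these genes as raised in Hanevalval, a further gene as lowered in TT8 and fewer as raised in ISE36. PAL SETIT_016475mg had the largest change among the called ones, with log2 fold changes of 1.86 in TT8 (limma adjusted p = 0.0186) and 2.27 in ISE36 (limma adjusted p = 0.00221). SETIT_009345mg was also called higher in both, 2.64-fold in TT8 (limma adjusted p = 0.016) and 2.40-fold in ISE36 (limma adjusted p = 0.0051). SETIT_016478mg was called higher in ISE36 (1.34, limma adjusted p = 0.00159), and SETIT_009509mg lower in TT8 (-1.33, limma adjusted p = 0.0111). In Hanevalval, SETIT_016475mg had 923, 1336, 21244 and 16468 in mock and 34672, 25716, 48961 and 35985 in AMF libraries. It thus showed the same split of mock replicates as CCR SETIT_017734mg, with replicates 3 and 4 high, and its log2 fold change there was 2.96 (limma adjusted p = 0.0919).

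The genes outside the 8 with the most similar profile over the 24 libraries were found by Pearson's r of log2 values among the 17901 genes whose mean value was 50 or more. The closest matches were to CCR SETIT_017703mg (SETIT_009973mg, r = 0.987, Spearman's rho 0.983), to CCR SETIT_017734mg (SETIT_022810mg, r = 0.982, rho 0.974) and to CCR SETIT_015117mg (SETIT_019531mg, r = 0.972, rho 0.898). HCT SETIT_010159mg paired with SETIT_010649mg (r = 0.968, rho 0.977), SETIT_013787mg with SETIT_000933mg (r = 0.941, rho 0.954) and SETIT_029887mg with SETIT_017050mg (r = 0.810, rho 0.823). C4H paired with SETIT_029875mg (r = 0.929, rho 0.876) and 4CL, the weakest, with SETIT_036757mg (r = 0.757, rho 0.691). None of the 8 matches is a PAL gene. The libraries share line, treatment and sequencing, and each r is the highest of many, so these values describe the profiles and carry no test.

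Among the 8 genes themselves, over the same libraries, SETIT_010159mg and SETIT_013787mg had r = 0.819, and CCR SETIT_015117mg and SETIT_017734mg r = 0.793. SETIT_017734mg and HCT SETIT_010159mg ran in opposite directions, at r = -0.809. For deviations from the group means, which remove line and treatment, the last value was -0.930 and that of both CCR genes 0.855. Hanevalval mock libraries had the widest spread of any group for these genes and so weigh most in the deviations. Their SD of log2 values was 2.37 for SETIT_017734mg, 1.85 for SETIT_010159mg and 4.33 for SETIT_015117mg. Values without that group were not computed. C4H and SETIT_017734mg had r = -0.03. These too are descriptions over libraries that share their groups.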

How the data were processed

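Root RNA of 24 samples (3 lines, mock or AMF, 4 libraries per group) was sequenced by poly(A) RNA-seq. The authors trimmed reads with Trimmomatic 0.38, aligned them to the Setaria italica genome with HISAT2 2.1.0, counted them per gene with featureCounts 2.0.0 and used DESeq2 1.26.0, per the labels and the study's methods. The deposited signal values, 1 table per line, are counts divided by a size factor per library. Every value was a whole multiple of its library's smallest value within 1e-06, so reads could be recovered, and the divisors matched DESeq2 size factors over all 24 libraries (ratio 0.998 to 1.002), so levels were compared across tables. No column was left unmapped (0). Depth was 15013564 to 23333517 reads, and 3 reads, taken as the floor, were worth 3.42 and 2.79 in the libraries without a read of SETIT_015117mg. No pair of libraries agreed within sampling noise (smallest chi-square per gene 7.06).

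Genes with a mean of at least 5 entered limma 3.58.1 (R 4.3.3) on log2(value + 1) with a variance trend, with Benjamini-Hochberg adjusted p over all genes. AMF was compared with mock within a line, and lines over all 24 libraries. Alternatives were edgeR 4.0.16 and DESeq2 1.42.0 on recovered reads, pseudocounts of 8 and 0.5, no filter, CPM, quantile normalization, a replicate block, 1 fit over 24 libraries, each treatment alone and left-out libraries. The step was tested on simulated data. Figures used matplotlib 3.10.9.

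The text names all 8 genes, the gene most like each, and up to 3 called pathway genes per line. The genes and lists were chosen with earlier results of these data known. No identifier (0) matched the RefSeq table, so the pathway list was limited to the 6 PAL genes named by the study, and tissue markers and motifs found by annotation were not used here.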

Additional observations from a re-analysis of the deposited data

Results flagged for a closer look

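For CCR SETIT_015117mg, TT8 mock replicate 4 had a normalized count of 18.96, while the nearest other TT8 mock library had 1.71. The gap was 0.910 of the group's range, above the critical value of 0.829 for 4 libraries. It was the only such value among 48 groups of 4 libraries examined, and chance alone marks about 1 group in 20. The same library had the highest summed level of the 5 colonization markers among TT8 mock libraries, 135 against 10.2 to 21.4, and the part of colonization in the value was not tested.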

How the results depend on the processing

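The number of the 8 genes past the AMF thresholds in Hanevalval (1) was 2 with edgeR, 4 with DESeq2, 3 with the replicate block, 5 in 1 fit over 24 libraries, 0 without mock replicates 1 and 2, 6 without mock replicates 3 and 4, and 0 to 5 with single libraries left out. The TT8 count (5) ranged from 3 to 7, and the ISE36 count (5) from 4 to 5, when single libraries were left out, and ISE36 gave 1 in the fit over 24 libraries. PAL counts became 3 with DESeq2, over 24 libraries and without mock replicates 3 and 4 in Hanevalval (0; 0 to 2 with single libraries left out), and 5 with quantile normalization and 1 over 24 libraries in TT8 (3; 2 to 4). Genes called between lines fell to 0, 0 and 2 in mock libraries alone (6, 2 and 4 with both treatments), and edgeR gave 1 for ISE36 against Hanevalval. With single libraries left out they ranged from 5 to 6, 2 to 3 and 4 to 5. Among called line differences, the only direction to turn was that of C4H in TT8 against Hanevalval, 0.11 in mock libraries alone. Fits on mock libraries alone rest on fewer libraries and share 1 variance per gene over the 3 lines, and the other causes were not tested. Of 912 single-gene line values under alternatives, 863 kept their side of the thresholds, 26 lost and 22 gained a call.

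Over all genes, Hanevalval calls numbered 704, but 3612 with DESeq2, 1867 with the replicate block, 4360 over 24 libraries, 7852 without mock replicates 3 and 4, 0 without replicates 1 and 2 and 0 to 3950 with single libraries left out, and TT8 calls (4150) 2010 to 5975. ISE36 calls went from 2654 to 1532 over 24 libraries and 1687 as CPM, where the pseudocount weighs more. Line calls (3779, 2749 and 3983 for TT8 against Hanevalval, ISE36 against Hanevalval and TT8 against ISE36) were 343, 1114 and 2577 in mock libraries alone and 2412, 1606 and 2648 as CPM, and TT8 against Hanevalval gave 6238 in AMF libraries alone and 2506 without Hanevalval mock replicates 3 and 4. The labels do not say that replicate numbers mark shared material, and same-numbered deviations correlated at -0.164 to 0.411, 15 of 36 over 0.1, so the numbers were not used as pairs. As a hint from the data that some numbers may share something, a mock library matched its own number best among the AMF libraries in 3, 3 and 2 of 4 cases in Hanevalval, TT8 and ISE36, though not every one did.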
